A study of Homo sapiens with 2 samples.

Results

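Most human protein-coding genes are spliced, but a minority are written in 1 exon and skip the splicing step. They include the histone genes, many receptors, early response transcription factors, and retrocopies, which arose when an mRNA was copied back into the genome. USP49 is a protease that removes ubiquitin from histone H2B and has been studied for its effects on expression and splicing. Genes without introns show how levels compare where no intron has to be removed.

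The genes described here are RefSeq protein-coding genes on chromosomes 1 to 22 whose transcript has exactly 1 exon of 300 bases or more in both assemblies. Of 1210 single-exon transcripts (1180 genes), 1191 (1161 genes) reached that length. A further 117 transcripts (102 genes) were left out. For 88 of these genes a multi-exon transcript has the same symbol, with its place not checked. The others overlap an exon of a multi-exon transcript on the same strand. This left 1074 transcripts of 1059 gene symbols, at 1072 places, against 17247 spliced genes as background, 18319 genes in all. The shortest kept gene, PRM3, has 309 bases and the longest one left out for length, PYDC2, has 294. Both had 0 fragments in both libraries.

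The data were 2 poly(A) RNA libraries of HCT116, a human colorectal carcinoma line carrying a tetracycline-inducible (T-REx) construct for knockdown of USP49. One library was the control, and the other was labelled USP49 knockdown and taken 36 h after doxycycline. The protocol text is the same for both, and whether the RNA control received doxycycline is not stated, nor is it stated whether the line is 1 clone. RNA was selected with oligo(dT) and copied with random hexamers, with no step that marks the strand. The control library held 16362627 fragments and the library labelled knockdown 19943103. There was 1 library per group, so no difference below has a replicate check or a p-value. Intervals are exact 95% Clopper-Pearson intervals on fragments rounded to whole numbers, and cover counting error only.

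USP49 itself had 47 fragments on its RefSeq exons in control against 69 under the knockdown label, a ratio of 1.21 after scaling for depth (interval 0.82 to 1.78). In control its own model held none of these fragments and in the other library all, so the control number is an estimate. The interval reaches down to 0.82 and covers counting error only. The RNA of this gene therefore did not bear out the label, and a large fall in it was not seen. Whether the treatment took effect was not tested, and directions below refer to the library by its label. The epithelial markers KRT19 (a level of 319 and 287, in the unit defined below) and EPCAM (151 and 144) were high in both libraries. Summed over the 5 epithelial markers the level was 580 in control against 529. Of 7 markers of fibroblasts, blood and endothelium, COL1A2, PTPRC and HBB had 0 fragments in both libraries, and COL1A1 (6.84 and 6.51) was the only one with more than 5 fragments in either.

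Each value below is a number of fragments on the exon of the gene. It was summed over all assembled and RefSeq models that cover the exon, on either strand, with the fragments of a model spread evenly over its bases. Where a gene takes part of a model's fragments, its number is an estimate and not a count. The interval is then approximate and leaves out the error of that division. Levels are fragments per kilobase of exon per 1000000 fragments of the library, called depth-scaled fragments per kilobase, and ratios are the library labelled knockdown over control. A gene counts as measured with a mean of 50 or more depth-scaled fragments.

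The kind of 3′ end matters for how single-exon genes appear in poly(A) RNA. Replication-dependent histone mRNAs end after a stem-loop and carry no poly(A) tail, while most other mRNAs are cut after a poly(A) signal and gain one. The sites below were chosen to show both kinds of end in genes described further on. The first 4 are histone stem-loops from GENCODE 29 transcripts (GRCh38), found by the histone stem-loop motif, with the stem-loop in capitals.
H2AC25, chr1:228457364-228457389, minus strand: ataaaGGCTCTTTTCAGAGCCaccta
H2BC21, chr1:149886183-149886208, minus strand: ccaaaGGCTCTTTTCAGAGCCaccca
H3C10, chr6:27810511-27810536, plus strand: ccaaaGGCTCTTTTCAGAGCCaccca
H4C5, chr6:26204996-26205021, plus strand: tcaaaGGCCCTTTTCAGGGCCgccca
The same annotation continues past the stem-loop in these genes, by 390 bases in H2AC25, 1729 in H2BC21, 769 in H3C10 and 1022 in H4C5, and AATAAA lies in the last 60 bases of the H2BC21, H3C10 and H4C5 transcripts. An annotated transcript can hold both. The next 4 are the last poly(A) signals, AATAAA or ATTAAA on the sense strand, of genes with high levels, with the signal in capitals. Of the 10 such genes searched, PCBP1, SF3B5 and JUNB had neither signal in the last 60 bases.
SFN, chr1:26864424-26864449, plus strand: gtttcctctcAATAAAgttcccctgt
H2AX, chr11:119093883-119093908, minus strand: gactaattttATTAAAggattgtttt
RHOB, chr2:20449404-20449429, plus strand: tatgtaaaatATTAAAagactatgat
IMP3, chr15:75639108-75639133, minus strand: tttaaatgtcAATAAAtgccccaact
Either signal lay in the last 60 bases of the matched transcript in 131 of 167 measured single-exon genes (78.4%) and in 313 of 861 that were not measured (36.4%). For spliced genes the shares were 80.2% of the measured and 74.1% of the others. The transcripts differ in length, with medians of 2711 bases for measured and 1075 for unmeasured single-exon genes. Many unmeasured genes are annotated with little beyond their coding part, so a missing signal there says nothing about the real end.

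Most single-exon genes had few or no fragments in these poly(A) libraries. Of the 1072, 647 (60.4%) had 0 fragments in both libraries, against 2757 of 17247 spliced genes (16.0%). Another 256 had some fragments but a mean under 50. The remaining 169 (15.8%) were measured, 141 of them with a mean of 100 or more and 43 with 1000 or more, while 11090 spliced genes (64.3%) were measured. Single-exon genes held 0.765% of the control library and 0.731% of the library labelled knockdown. Their median level when measured was 8.14 in control against 7.87, against 14.5 and 14.4 for spliced genes. In bulk RNA, fewer expressing cells and less RNA per cell cannot be told apart. RNA without a poly(A) tail is also missed by the selection, so 0 fragments does not show that a gene is silent. Among the genes with 0 fragments are 25 of the 54 replication-dependent core histone genes.

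Genes of cell cycle control, chromatin and RNA processing were among those with the highest levels. SFN, the 14-3-3 sigma protein that holds epithelial cells at cell cycle checkpoints, lies at chr1:27062220-27063534 (hg18). It had 4790 fragments in control against 5186 under the knockdown label, a level of 223 and 198. PCBP1, a protein that binds poly(C) stretches in RNA, had 4809 and 5485 fragments, a level of 168 and 157. The shift of both was downward and past counting error: the ratio was 0.89 for SFN (0.85 to 0.92) and 0.94 for PCBP1 (0.90 to 0.97). Neither gene was past the size threshold used below, a log2 ratio of 0.32 either way. The log2 ratios were −0.17 for SFN and −0.1 for PCBP1. With the median of spliced genes of like GC content subtracted, they became −0.07 and −0.03.

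Also among the highest in level were HNRNPA0, H2AX, RHOB, SF3B5, UQCRHL, IMP3 and RRS1. HNRNPA0, an RNA-binding protein, stood at 111 and 108, and H2AX, the histone variant phosphorylated at DNA breaks, at 108 and 102. RHOB, a small GTPase, stood at 95.9 and 89.7, with a ratio of 0.93 (0.89 to 0.98). Under the same subtraction for GC content the log2 ratio of RHOB went from −0.1 to −0.03. That of HNRNPA0 went the other way, from −0.04 to −0.09. SF3B5, a subunit of the SF3b complex of the spliceosome, stood at 88.6 and 88.4. IMP3, a protein of the U3 particle that processes ribosomal RNA, stood at 61.3 and 60.5, and RRS1, a ribosome assembly factor, at 58.5 and 58.3. The ratios of SF3B5, IMP3 and RRS1 lay between 0.99 and 1.00, with 1 inside each interval. UQCRHL, at 74.9 and 73.8, is a copy of the spliced gene UQCRH, and reads of the pair may have been divided in either way.

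**Figure D1:**
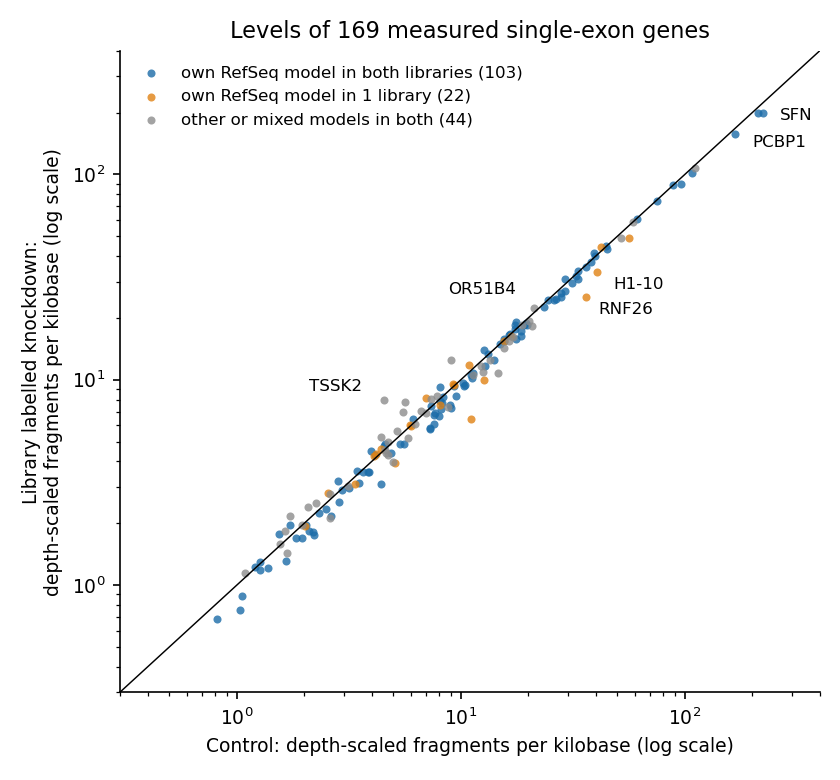
Level of each of the 169 measured single-exon genes in control (horizontal) against the library labelled knockdown (vertical), in depth-scaled fragments per kilobase on log axes, with the line of equal level. Points are coloured by which models carry the gene; SFN lies at 223 and 198 and PCBP1 at 168 and 157, and TSSK2 and RNF26 lie farthest from the line among the labelled genes.

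As a class, measured single-exon genes were slightly lower in the library labelled knockdown than spliced genes were. Their median log2 ratio was −0.06, and that of spliced genes −0.0031, a difference of −0.06. The central 95% ran from −0.42 to 0.30 for single-exon genes and from −0.38 to 0.28 for spliced genes, so the shift is small beside the spread of either class. Below 0 lay 113 of 169 single-exon genes (66.9%) and 5657 of 11090 spliced genes (51.0%). In the 43 single-exon genes with a mean of 1000 or more fragments the median was −0.07. For 16 of these the interval lay below 1 and for 2 above. Spliced genes of the same depth were not counted, so these counts have no background of like depth. Among spliced genes of all depths the shares were 14.5% and 13.7%.

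No measured single-exon gene differed by 2-fold or more (0 of 169), and 88 of 11090 spliced genes (0.794%) passed that size. A smaller size threshold, a log2 ratio of 0.32 or more either way with an interval that excludes 1, was used to count genes. By it 3 single-exon genes were higher (1.78%, against 1.42% of spliced genes) and 7 were lower (4.14%, against 2.81%). Both shares are near the background of spliced genes. The counts depend on the models summed: on the genes' own models alone 11 were higher, 19 lower and 13 past 2-fold, and on models of the gene's strand or of no strand 7 were past 2-fold. By the interval alone, 27 single-exon genes were lower (16.0%, against 14.5%) and 6 higher (3.55%, against 13.7%). Whether an interval excludes 1 depends on depth, which was not matched. The median of mean fragments was 392 for single-exon genes and 863 for spliced genes.

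**Figure D2:**
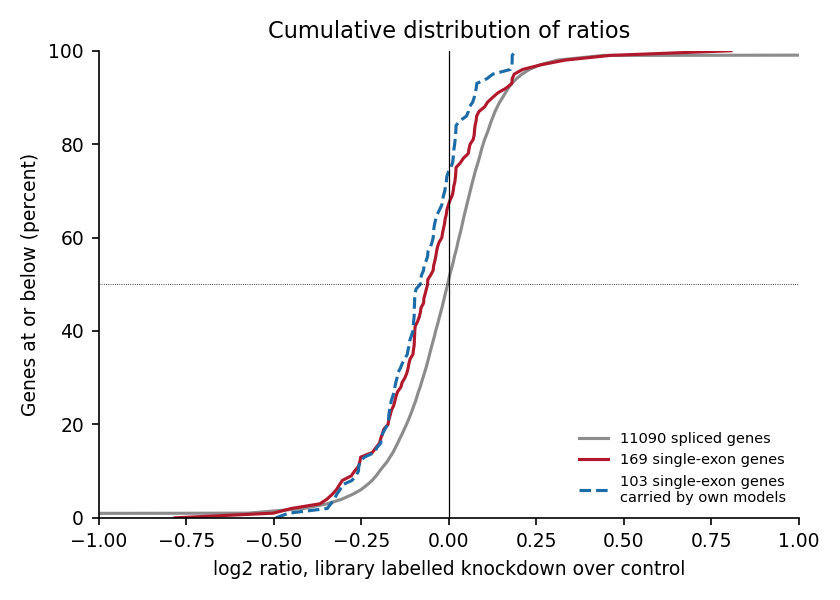
Cumulative percent of genes (vertical) at or below each log2 ratio of the library labelled knockdown over control (horizontal, shown from −1 to 1) for 11090 spliced genes, 169 single-exon genes and the 103 of these carried by their own models. The single-exon curves lie left of the spliced curve through the middle, with a median of −0.06 against −0.0031, and the curves of all single-exon and of spliced genes meet near both ends.

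Which models carried a gene was recorded for each, since each library was assembled separately. In 103 measured genes (60.9%) the gene's own RefSeq model held 95% or more of the fragments in both libraries. In 22 it did so in 1 library, and in 44 in neither. The 103 genes ranged from −0.49 to 0.19, with a median of −0.08 and an SD of 0.13. The 2825 spliced genes carried in the same way had a median of 0.00077 and the same SD of 0.13. Among the 103, 2 genes were lower by the size threshold (1.94%, against 0.991% of such spliced genes) and 0 higher (against 0.212%). With depth not matched, the interval lay below 1 in 16 of them (15.5%, against 13.7%) and above 1 in 1 (0.971%, against 13.1%). The one above was KLHL9, an adaptor of a cullin-3 ubiquitin ligase, with 1281 and 1688 fragments. Genes carried in 1 library or in neither by their own model spread more widely, from −0.78 to 0.21 and from −0.43 to 0.81.

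Ratios were lower at high than at low GC content in both classes, and the part of GC content in the shift was not tested. Spliced medians went from 0.08 in transcripts of up to 40% GC to −0.12 above 65%. Single-exon medians went from 0.08 to −0.15 over the same bins. Measured single-exon genes had a median GC of 52.2% and spliced genes of 49.3%. The classes were level up to 40% GC and differed by −0.03 to 0.03 in the 4 bins above 50%. The gap stood at −0.07 in 32 single-exon genes of 40 to 45% GC and at −0.11 in 32 of 45 to 50%, where 26 of 32 were below 0. With the spliced median of the same bin subtracted from each gene, the single-exon median was −0.04. By length, single-exon medians were −0.05 under 1500 bases, −0.06 from 1500 to 3000 and −0.07 above.

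**Figure D3:**
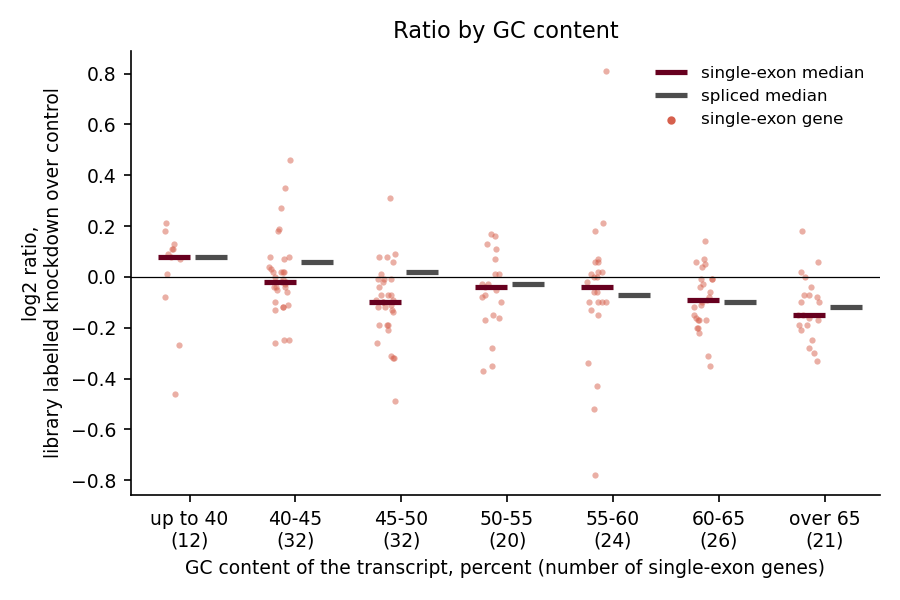
The log2 ratio of the library labelled knockdown over control (vertical) by GC content of the matched transcript (horizontal, percent, with the number of single-exon genes), as single-exon genes (points) and medians of each class (bars). Spliced medians go down with GC content bin by bin, single-exon medians run from 0.08 to −0.15 without falling in every bin, and the widest gaps are between 40 and 50% GC.

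The 7 genes counted as lower included several whose carrying models changed. RNF26, a ubiquitin ligase of the endoplasmic reticulum membrane (chr11:118710420-118713234, plus strand), had 1666 fragments in control, all on its own model. In the library labelled knockdown it had 1420, of which 29.5% lay on its own model. The rest lay on an assembled 2-exon model on the minus strand, which covers nearly the whole exon and held 1004 fragments in all. The ratio over both models was 0.70 (0.65 to 0.75), and the log2 ratio of −0.52 becomes −2.27 if the minus-strand model is left out. DDX28, a mitochondrial RNA helicase, had 621 and 560 fragments, a ratio of 0.74 (0.66 to 0.83). It shares exon bases with DUS2 on the other strand, and spliced models held 12.8% of its fragments in control and 52.7% in the other library.

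Smaller shifts of the models came with the next pair. DNAJC30, a mitochondrial chaperone relative, had 210 and 198 fragments (0.77, 0.63 to 0.94). TMEM185B, a membrane protein, had 1232 and 1179 (0.79, 0.72 to 0.85). Their own models held all fragments in control and 85.0% and 84.1% in the library labelled knockdown. FNDC10, a fibronectin-domain protein, was carried by its own model in both, with 248 and 241 fragments (0.80, 0.66 to 0.96). With the median of spliced genes of like GC content subtracted, its log2 ratio went from −0.33 to −0.21, short of the size threshold. Over all measured single-exon genes, 8 were counted as lower after that subtraction.

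The remaining 2 of the 7 had a mean under 100 fragments and are named here after their values were seen. PEX39, a peroxisome biogenesis protein, had 100 and 71 fragments (0.58, 0.42 to 0.80), and its own model held none of them in control and all in the library labelled knockdown. TMEM81, a membrane protein, had 96 and 83 (0.71, 0.52 to 0.96) on its own model in both.

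Just short of the size rule lay EXOSC6, NACA2, BORCS6, PROB1 and NANOS1. EXOSC6, a subunit of the RNA exosome, had 203 and 198 fragments (0.80, 0.65 to 0.98), and its ratio before rounding is short of the threshold. BORCS6, a subunit of the lysosome-positioning BORC complex, had 237 and 233 (0.81, 0.67 to 0.97). The intervals of NACA2, PROB1 and NANOS1 included 1. NACA2 is a copy of NACA, so its 114 and 112 fragments may include reads of that gene.

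All 3 genes counted as higher share exon bases with a spliced gene on the other strand, and their own models held no fragments in either library. TSSK2, a testis-specific kinase inside ESS2, had 136 and 290 fragments, all spread from the 10-exon ESS2 model (402 and 859 fragments in all). Its ratio was 1.75 (1.42 to 2.16). CLDN22, a claudin, lies under the last part of WWC2, whose 23-exon model placed 244 and 378 fragments on it (1.27, 1.08 to 1.50). LENG9 had 285 and 477 fragments (1.37, 1.18 to 1.60). In control all came from spliced models on the strand of LENG8, and in the library labelled knockdown 278 came from an unspliced minus-strand model of 6117 bases. With no strand in the libraries, these values cannot be told apart from those of the partner genes. Of the 169 measured genes 17 share exon bases with another RefSeq gene of any kind, on either strand, and without them 0 of 152 were higher.

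The other high ratios were small. KBTBD7, an adaptor of a cullin-3 ubiquitin ligase, had 214 and 315 fragments (1.20, 1.01 to 1.44). Its own model held none in control, where a longer unspliced model covered it, and 30.5% in the other library. KCTD12, IGIP, NRARP, which limits Notch signalling, and CCDC71L were carried by their own models, at ratios of 1.13 to 1.14 with intervals that include 1. FOXL1 stood at 1.12 and H2AJ at 1.10, also with 1 inside the interval.

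**Figure D4:**
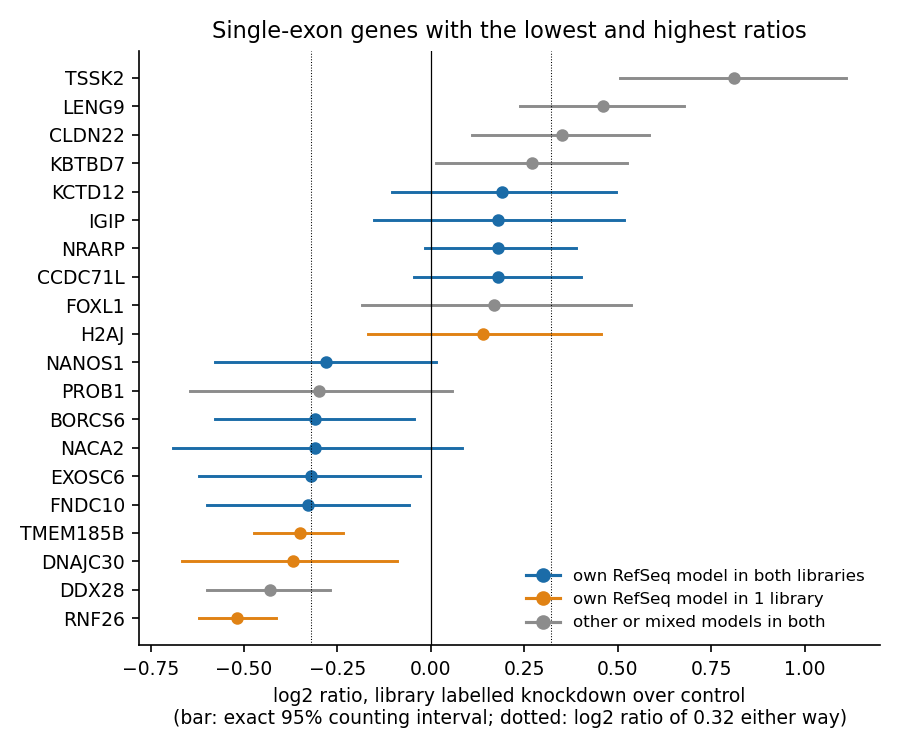
The log2 ratio of the library labelled knockdown over control (horizontal) for the 10 lowest and 10 highest of the 141 single-exon genes with a mean of 100 or more fragments. Bars are exact 95% counting intervals on rounded fragments, dotted lines mark a log2 ratio of 0.32 either way, and colours show the carrying models. The only genes past the size threshold upward, TSSK2, LENG9 and CLDN22, are carried by other models in both libraries.

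The 54 replication-dependent core histone genes encode the H2A, H2B, H3 and H4 of newly copied chromatin. Together they held 194 fragments in control against 325, and 25 had none in either. Of 51 with a matched transcript, 17 held the stem-loop motif, which cannot be found in a transcript annotated only for its coding part. Some longer transcripts, such as those of H3C8 (2411 bases) and H4C9 (1294 bases), also held no match. Only 1 motif pattern was searched, so a missing match does not show that a stem-loop is absent. H3C10 had 16 and 13 fragments, H4C5 2 and 2, and H2BC21 19 and 35. Only H2AC6 and H2AC25 were measured.

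H2AC6 (chr6:26232352-26232897) had 50 and 85 fragments, a ratio of 1.38 with an interval of 0.97 to 2.02. In control all were spread from spliced models that run on to 26247311, and in the library labelled knockdown 64.4% came from a 2-exon model ending at 26247183 and the rest from the gene's own model. H2AC25 had 57 and 81 fragments (1.16, 0.82 to 1.67).

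The summed ratio of the core histones depends on the models counted. Over models of either strand it was 1.37 (1.15 to 1.65), with 21 genes higher and 8 lower after scaling. On the genes' own models the sums were 118 and 120, a ratio of 0.83 (0.64 to 1.09). Without H2AC6 the pair of ratios was 1.36 (1.10 to 1.69) and 0.62 (0.46 to 0.82). H2BC4 shows the shift: its 4 fragments in control lay on its own model, and its 22 in the library labelled knockdown on spliced models. No direction can be given for this list. The factors that form histone mRNA ends, which are spliced genes, had a median log2 ratio of 0.08, with 0 of 10 past the size threshold. SLBP, the protein that binds the stem-loop, had 3081 and 3977 fragments (a level of 109 and 116).

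Linker and variant histones ranged from 0 fragments to high levels. Of 12 such genes reported here, 4 were measured, all 4 below 0, with a median of −0.21 and 0 past the size threshold. The 12 include H2BC26, which the core list also holds. H2AJ, a measured single-exon H2A gene outside this list, was above 0, at 0.14 (ratio 1.10, 0.89 to 1.37). H1-3, H1-5, H1-6, H1-7 and H3-4 had no fragments in either library, and H1-1, H1-4 and H2BC26 had at most 9. H1-10, a linker histone (chr3:130516304-130517810, minus strand), had 997 and 1002 fragments, a level of 40.4 and 33.3 and a ratio of 0.82 (0.75 to 0.90). In control all lay on its own model, and in the library labelled knockdown 905 lay on an unspliced plus-strand model of the same place. H1-10 shares exon bases with another RefSeq gene, H1-10-AS1. Its log2 ratio of −0.28 becomes −3.64 on models of its own strand. H1-2 stood at 10.4 and 9.38 (0.90, 0.70 to 1.16). H3-5, a copy of an H3.3 gene whose reads it may share, stood at 8.96 and 7.50 (0.84, 0.67 to 1.05). H2AX had 2823 and 3253 fragments (0.95, 0.90 to 0.99), and its log2 ratio of −0.08 becomes 0.04 once the spliced median of its GC bin is subtracted.

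**Figure D5:**
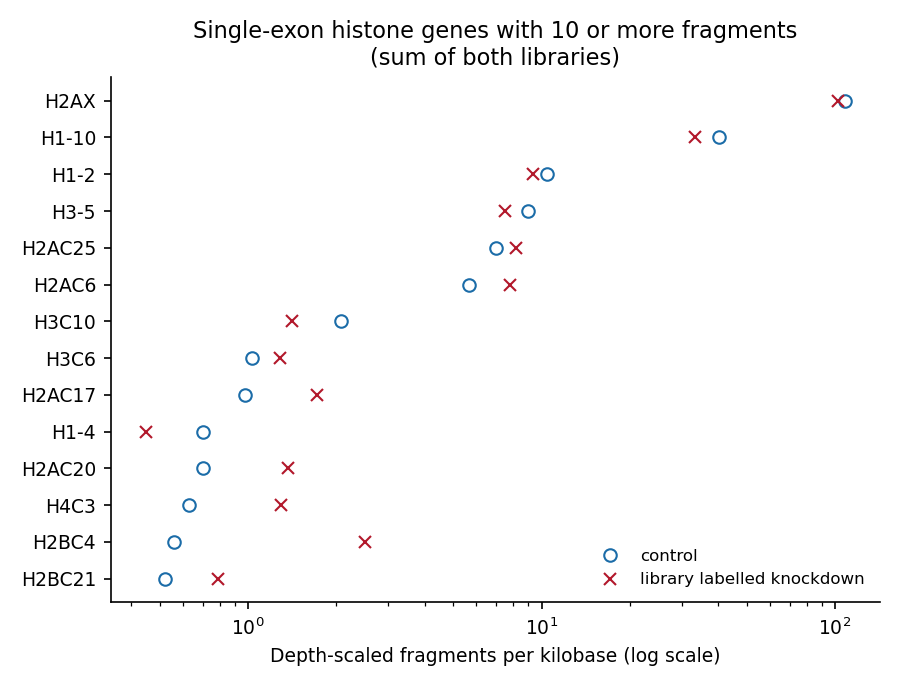
Level of 14 single-exon genes of the histone lists, in depth-scaled fragments per kilobase on a log axis, for control (circles) and the library labelled knockdown (crosses). Genes of the core list and of the linker and variant list are shown where they had 10 or more fragments over both libraries. H2AJ, outside these lists, is not plotted. H2AX and H1-10 stand at 33.3 to 108, and no core histone gene exceeds 8.17.

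The starts of the abundant genes were set beside each other, from RefSeq promoters (GRCh38.p14) matched by symbol. Shown are the 250 bases before the start of SFN, the highest gene, and of the histone genes H2AX and H1-10. Summed over models of either strand, both histone genes had a ratio below 1, with the limits given above. Capitals mark matches, on either strand, of the motif TATAAA, the motif CCAAT, the motif GGGCGG and the motif TGACTCA, none of which contains another.
SFN, chr1:26862899-26863148, plus strand: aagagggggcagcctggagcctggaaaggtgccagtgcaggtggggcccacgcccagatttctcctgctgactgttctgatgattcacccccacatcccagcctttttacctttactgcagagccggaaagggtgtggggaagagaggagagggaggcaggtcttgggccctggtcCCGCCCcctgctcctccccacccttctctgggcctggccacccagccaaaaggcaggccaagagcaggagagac
H2AX, chr11:119095466-119095715, minus strand: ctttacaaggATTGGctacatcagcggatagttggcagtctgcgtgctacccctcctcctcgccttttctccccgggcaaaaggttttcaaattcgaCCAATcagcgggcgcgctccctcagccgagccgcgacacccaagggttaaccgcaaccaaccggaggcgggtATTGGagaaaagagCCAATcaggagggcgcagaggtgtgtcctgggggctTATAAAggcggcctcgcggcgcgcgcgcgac
H1-10, chr3:129316287-129316536, minus strand: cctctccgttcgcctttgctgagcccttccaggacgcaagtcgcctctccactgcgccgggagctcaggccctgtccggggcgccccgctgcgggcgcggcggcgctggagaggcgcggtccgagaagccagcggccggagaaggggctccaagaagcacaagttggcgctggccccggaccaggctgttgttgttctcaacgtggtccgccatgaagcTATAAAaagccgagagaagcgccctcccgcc
TATAAA begins 31 bases before the start in both histone genes, and H2AX also holds 4 CCAAT matches, while SFN holds 1 GGGCGG match. A match is a description of letters and not a site in use. Over the 134 promoters of measured single-exon genes (128 genes matched), TATAAA occurred in 8.21%, CCAAT in 41.8%, GGGCGG in 61.2% and TGACTCA in 3.73%. In all 35116 promoters of the table the shares were 10.7%, 32.0%, 42.6% and 4.20%. Over 13239 promoters of measured spliced genes they were 5.45%, 32.7%, 65.1% and 2.81%.

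Early response regulators were expressed and differed little. Of 12 bZIP factors and immediate early genes, all with fragments, 9 were measured, 3 above 0 and 6 below, with a median of −0.07 and 0 past the size threshold. JUN, a subunit of the AP-1 factor, had 890 and 1100 fragments, a level of 16.4 and 16.6. JUNB stood at 51.7 and 48.8, and JUND at 36.3 and 35.3. IER5 stood at 31.2 and 29.7 and IER5L at 33.2 and 34.0. Every interval of these 5 genes included 1.

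Of 45 developmental transcription factors of the SOX, FOX, POU, bHLH and related families, 22 had no fragments and 8 were measured. Their ratios ran from −0.16 to 0.17, and 0 passed the size threshold. SOX12 had 1340 and 1464 fragments, a level of 17.6 and 15.8 and a ratio of 0.90 (0.83 to 0.97). FOXC1 stood at 19.2 and 18.4. The nucleic acid binding proteins PURB and PURA, placed in the same list, stood at 8.30 and 8.20 and at 9.32 and 9.38.

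Receptors were low. Of 6 Frizzled genes, receptors of Wnt ligands, 3 were measured: FZD7 at 7.36 and 7.43, FZD1 at 6.01 and 5.98, and FZD2 at 4.10 and 4.24. All 3 ratios lay between 0.99 and 1.03. Of 79 other G protein-coupled receptors outside the olfactory family, 38 had no fragments and 5 were measured. Among these ADRA2C, an adrenergic receptor, stood highest at 11.3 and 10.8, and MC1R, the melanocortin receptor, stood at 4.14 and 4.32.

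Olfactory receptors made up the largest group, with 360 genes, of which 328 had no fragments in either library. The 4 measured ones lie together on chromosome 11, between 5278820 and 5467554. The 61 olfactory genes of the first 10 Mb of that chromosome held 733 of the 757 olfactory fragments in control and 804 of 822 in the library labelled knockdown, a split made after the values were seen. OR51B4 had 360 and 423 fragments on its own model, a level of 23.6 and 22.7, and a ratio of 0.96 (0.84 to 1.11). OR51B2 had 103 and 127 fragments. In control they were spread from a 4489-base unspliced model, and in the library labelled knockdown they lay on the gene's own model. OR52D1 had 86 and 84 fragments, spread from longer unspliced models of 1922 bases in control and 5974 in the other library. OR51I1 had 76 and 98 on its own model. HBB, the beta-globin gene that lies next to this cluster, had 0 fragments in both libraries.

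Single-exon genes that work on RNA were nearly all expressed. Of 12 in the list of RNA processing and ribosome assembly, 10 were measured, 3 above 0 and 7 below, and 1, DDX28, was lower past the size threshold, against 2.81% of spliced genes. RBM15B, a protein of the m6A methylation complex, stood at 20.2 and 19.3, and its own model held no fragments. In control a 2-exon assembled model on its own strand held 1788 fragments, and under the knockdown label all lay on spliced models on the strand of DCAF1. CSTF2T, a copy of the cleavage stimulation subunit CSTF2, stood at 15.6 and 15.8 on its own model. Of 28 retrocopies 13 were measured, with a median of −0.10 and 0 past the size threshold. RRAGA, a GTPase that signals amino acids to mTORC1, stood at 39.2 and 41.2, and KLHL9 at 17.7 and 19.2.

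In the ubiquitin list 7 of 21 genes were measured, 3 above 0 and 4 below, and 1, RNF26, was lower past the size threshold, against 2.81% of spliced genes. KBTBD6, a partner of KBTBD7, had 706 and 800 fragments (0.93, 0.84 to 1.03). Of the mitochondrial genes MARS2, the mitochondrial methionyl-tRNA synthetase, stood at 16.7 and 16.3, and SDHAF1, an assembly factor of complex II, at 9.35 and 9.31. Among the MAGE genes MAGEF1 stood at 32.7 and 31.9, and NSMCE3, a subunit of the SMC5/6 complex, at 17.5 and 18.4. The zinc finger genes ZNF830 and ZNF865 stood at 15.6 and 15.4 and at 4.62 and 4.41. HSPA2, a testis-enriched HSP70, had 78 and 108 fragments (1.13, 0.84 to 1.54), and KCTD11, an adaptor of ubiquitin ligases, had 192 and 216. None of the 16 protocadherins, 71 keratin-associated proteins, 16 type I interferons or 4 potassium channel subunits in the lists was measured.

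Single-exon genes were set beside a spliced relative in 19 of 30 pairs where both were measured. The single-exon gene was below 0 in 12 pairs and the relative in 8. The 19 pairs hold fewer than 19 relatives, as FOSL1 stands beside each JUN gene and FZD6 beside both FZD7 and FZD1. In 3 pairs the intervals did not overlap. How often this holds for any pair of genes was not counted, and the pairs were not matched for GC content. RHOB had a ratio of 0.93 (0.89 to 0.98) and RHOA 1.04 (1.01 to 1.06). CEBPB, a bZIP factor, had 0.89 (0.79 to 1.01) and CEBPG 1.12 (1.06 to 1.19). DDX28 had 0.74 (0.66 to 0.83), with the models described above, and DDX27 1.00 (0.93 to 1.07). In the other 16 pairs the intervals overlapped, as for PCBP1 (0.94) with PCBP2 (0.92) and SOX4 (0.90) with SOX9 (0.87). PABPC3, at 0.84 (0.72 to 0.98), may share reads with PABPC1, its source gene, at 0.98.

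Place in the genome was also compared. Of the measured genes 10 lie inside the span of a spliced gene on the same strand, where unspliced RNA of the host would add fragments. Their ratios ran from −0.12 to 0.09 with a median of 0.02, and 3 of 10 were below 0. The 140 with no host had a median of −0.07, with 99 below 0. An unspliced message of a single-exon gene cannot be told apart from genomic DNA or from host pre-mRNA. Unspliced assembled models outside RefSeq genes held 1.78% of control fragments against 1.72% in the other library, and their part in these ratios was not tested.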

How the data were processed

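The deposited files were 1 Cufflinks transcript assembly per library, which lists RefSeq models beside assembled ones. The submitters' processing notes also name TopHat, Bowtie, SAMtools, Picard and bedtools, and the build hg18. No source used here gives their versions. Each model holds an FPKM with an interval and a score deposited by the authors, which was not used. The FPKM proved to be undivided by depth: up to a constant factor it equals fragments over 2 × (length − 47 bases). This relation held in 89.1% of the RefSeq models checked, each alone in its locus, in either library. In loci with 1 model, fragment numbers were recovered from value and interval, and were whole within 0.02 in 94.9% (control) and 94.5%. Where the interval failed, and in loci with more models, they came from value and length by that relation. In loci with more models the sums were whole in 75.8% and 76.4%, so how fragments divide between overlapping models is the estimate of Cufflinks. Fragments were spread evenly over exonic bases, summed over models of either strand and divided by library totals.

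Ratios were log2 of (fragments + 0.5) scaled to the total. Names came from RefSeq accessions (GRCh38.p14), and GC content and 3′ ends from GENCODE 29 transcripts, of which 45.6% of the measured genes had one within 50 bases of the RefSeq length. Genes were named by fixed rules: the 10 lowest and 10 highest ratios at a mean of 100 or more fragments, the 10 highest levels, up to 4 genes with the most fragments per list, and the measured pairs. Genes outside these rules were named after their values were seen. The members and lists were chosen with earlier results of these data known, and lists are described by counts beside the background. The ratios and intervals were tested on simulated whole counts, which did not test the division of fragments between models. Python 3.11.15, NumPy 2.4.6, pandas 2.3.3, SciPy 1.17.1 and matplotlib 3.10.9 were used. No p-value was computed, with 1 library per group. Protein sequences were not used here. 1 gene that the naming rules select is not reported here.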

Additional observations from a re-analysis of the deposited data

How the results depend on the processing

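No paired analysis was possible because each group has 1 library. The difference of the medians, −0.06, stayed between −0.04 and −0.09 under all 11 alternatives. Of these, 2, own models in both libraries and subtraction by GC bin, were chosen after seeing the data. No depth scaling and spliced ratios as size factor move both classes alike, so these could not change the difference. Leaving out core histones kept 167 of 169 single-exon genes and could change it little. With own RefSeq models only, 11 single-exon genes were higher by the size threshold, 19 lower and 13 past 2-fold, against 3, 7 and 0, and the spliced median was 0.0044. With models of the gene's strand 7 were past 2-fold. With no depth scaling the medians were 0.23 and 0.28 for spliced genes, and 36 genes were higher, 1 lower and 1 past 2-fold. With a minimum of 10 fragments the counts were 6, 12 and 9, and with a minimum of 200 the spliced median was −0.00014. Spliced ratios as size factor set the spliced median to 0.0 by construction. Without genes that share bases 0 were higher. Among genes carried by own models in both libraries 0 were higher and 2 lower, and the spliced median was 0.00077. With GC bins subtracted 1 was higher and 8 lower. The log2 ratio of the summed core histones, 0.45, was −0.26 on own models, 0.13 on models of the strand and 0.06 in genes carried by own models. Single-exon genes with a mean under 50 fragments, 256 with any, are too shallow for a ratio. Leaving out a library was not possible with 1 per group.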
